A study of Mus musculus with 6 samples.

Results

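Immediate early genes are switched on within minutes of a stimulus without new protein synthesis, and 10 of them are described here across arrays of a mouse beta-cell line and of mouse islets: Fos, Jun, Junb, Egr1, Ier2, Ier3, Myc, Hes1, Nr4a1 and Dusp1. Their probe sets were taken by gene symbol, as every probe set annotated with 1 symbol from this set. The set of genes itself was chosen with earlier results of these data known. This gave 11 probe sets of 45101 on the array, 2 for Jun and 1 for each of the others, and 10 genes of 18194. Of these, 9 passed the filter on low values, a mean of at least 4 on the log2 scale, in MIN6 cells and again 9 in islets; Junb passed in neither.

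MIN6, a mouse insulinoma line that secretes insulin, received an adenovirus carrying green fluorescent protein (AdGFP, 1 array), miR-7a2 (AdmiR7a, 2 arrays) or miR-7b (AdmiR7b, 1 array). All 4 infections ran for 48 h at a multiplicity of 250 with 4.5 g/l glucose and 2% serum in the medium, so the control was infected too. Of the 2 islet arrays, 1 came from C57BL/6 mice whose beta cells lacked miR-7a2 through Cre and loxP (KO), and the other from wild-type C57BL/6 mice (WT). The Cre driver, the age of the mice and the number of mice behind each array are not given in the sources used here, and the deletion was directed at beta cells, so the other islet cells were not targeted. The design text gives the miR-7a infection as duplicates without saying that the cultures were separate, so p-values measure the spread between these arrays, which may be technical. All values are log2 probe set intensities.

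Many stimuli reach these genes through the same routes. Growth factors and nutrients act through the ERK cascade on serum response factor and its ternary complex partners, and membrane depolarisation and cyclic AMP act through CREB on cyclic AMP response elements. In beta cells glucose and incretins are known inducers of Fos, Egr1 and Nr4a1 by calcium and cyclic AMP. The proteins are short-lived: Fos, Jun and Junb combine into the AP-1 factor, Egr1 and Nr4a1 bind DNA on their own, and Dusp1 removes the phosphates that activate MAP kinases and so ends the signal.

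The vectors deliver microRNAs that share their seed, the stretch that pairs with target transcripts. The mature sequences from RefSeq (GRCm38.p6) are shown with the seed, bases 2 to 8 from the 5′ end, in capitals, because both vectors were pooled below on this ground. They differ by A10U, counted from the 5′ end with the miR-7a base first, and by 1 extra base at the 3′ end of miR-7b.
miR-7a-5p, Mir7-2 at chr7:78888295-78888317, plus strand: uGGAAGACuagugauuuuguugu
miR-7b-5p, Mir7b at chr17:56243017-56243040, plus strand: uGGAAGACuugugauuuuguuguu

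The promoters of 6 of the 10 genes were found in the RefSeq promoter table (GRCm38.p6): Fos, Jun, Junb, Ier3, Nr4a1 and Dusp1. The 250 bases before the start site are shown for 5 of them, chosen because their test results below were not all alike. Jun and Dusp1 rose with miR-7, Ier3 fell, and Fos and Nr4a1 did not pass the test. Not passing does not show a different response: the difference with miR-7 was 0.53 ± 0.18 (SE) for Fos and 0.61 ± 0.08 for Dusp1. A link between motifs and response was not tested. Capitals mark TGACG, the core of the cyclic AMP response element, on either strand, TGANTCA, the AP-1 site, and TGACATCA and TTACCTCA, variant AP-1 sites known from the Jun promoter.
Jun, chr4:95052223-95052472, minus strand: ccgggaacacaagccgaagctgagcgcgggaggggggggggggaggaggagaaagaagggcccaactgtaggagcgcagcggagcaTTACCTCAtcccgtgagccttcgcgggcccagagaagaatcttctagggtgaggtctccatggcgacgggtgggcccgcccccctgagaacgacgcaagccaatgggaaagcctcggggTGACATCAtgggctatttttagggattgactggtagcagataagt
Fos, chr12:85473640-85473889, plus strand: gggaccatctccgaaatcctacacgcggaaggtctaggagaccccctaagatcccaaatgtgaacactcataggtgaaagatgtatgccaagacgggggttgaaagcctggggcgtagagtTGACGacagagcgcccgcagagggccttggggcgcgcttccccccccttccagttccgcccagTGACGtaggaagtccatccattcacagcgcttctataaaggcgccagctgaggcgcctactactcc
Dusp1, chr17:26508473-26508722, minus strand: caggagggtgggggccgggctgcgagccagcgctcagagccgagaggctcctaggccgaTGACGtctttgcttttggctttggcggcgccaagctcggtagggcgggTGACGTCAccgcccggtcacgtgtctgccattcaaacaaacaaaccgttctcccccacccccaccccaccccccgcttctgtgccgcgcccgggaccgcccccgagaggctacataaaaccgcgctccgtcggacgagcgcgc
Nr4a1, chr15:101266596-101266845, plus strand: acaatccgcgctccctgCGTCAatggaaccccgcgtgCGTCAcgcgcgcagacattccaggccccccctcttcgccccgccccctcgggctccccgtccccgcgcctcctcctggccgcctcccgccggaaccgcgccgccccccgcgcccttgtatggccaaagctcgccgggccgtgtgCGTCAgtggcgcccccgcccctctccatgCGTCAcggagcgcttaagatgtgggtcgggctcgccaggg
Ier3, chr17:35821463-35821712, plus strand: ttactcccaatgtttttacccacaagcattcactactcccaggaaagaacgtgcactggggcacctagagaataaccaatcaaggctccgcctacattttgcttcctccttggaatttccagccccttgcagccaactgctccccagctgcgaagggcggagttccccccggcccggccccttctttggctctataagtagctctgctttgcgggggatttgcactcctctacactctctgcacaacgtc

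Positions count from the start site, with -1 the last base before it. Jun held TGACATCA at -45 to -38 and TTACCTCA at -164 to -157. Over all 32851 promoter windows of the same length, 2.93% held the first and 0.728% the second on either strand. Fos held TGACG at -129 to -125 and at -66 to -62, and a TATAAA box at -33 to -28 (12.4% of windows). Dusp1 held the full palindrome TGACGTCA at -143 to -136, which contains TGACG on both strands, and another TGACG at -191 to -187; 1.55% of windows held the palindrome. Nr4a1 held 4 matches to TGACG, all on the opposite strand, where 0.688% of windows held 3 or more. Ier3 held none of the marked motifs. TGACG lay in 4 of the 6 promoters, Junb included, and in 17.8% of all windows, and no member window held TGANTCA (6.75% of windows), a CArG box, the site of serum response factor (1.47%), or GCGTGGGCG, the Egr1 site (0.536%). These are matches of letters in a short window. Sites further upstream were not sought, and Egr1, Ier2, Myc and Hes1 had no window, so a motif not found here may lie elsewhere. The windows of the 6 genes were also rich in G and C, from 54.4% in Ier3 to 74.4% in Nr4a1 against a median of 52.4%.

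With miR-7 in MIN6 cells, Jun, Hes1, Dusp1 and Myc rose and Ier3 fell. For this the 3 miR-7 arrays were set against the 1 AdGFP array in limma, with 2 residual degrees of freedom and Benjamini-Hochberg adjustment over all 10369 genes tested; "rose" and "fell" stand for an adjusted p under 0.05. Thus 4 of the 9 tested members rose and 1 fell, 55.6% in either direction. Over all genes 14.3% rose and 11.9% fell, and 26.2% passed in either direction. The members' median difference was 0.53 against 0.06 over all genes tested. Because the members were chosen with earlier results of these data known, these shares and medians describe the list and test nothing about it.

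Jun, the AP-1 subunit that pairs with Fos or with itself, moved furthest. Its brighter probe set read 8.66 on AdGFP, 10.25 and 10.12 on the AdmiR7a arrays and 10.42 on AdmiR7b. All 3 miR-7 arrays lay above AdGFP by 1.45 or more. The pooled difference was 1.60 ± 0.14 (log2, SE; adjusted p = 0.0130), 3.03-fold, and 1.48% of all tested genes had a larger absolute difference. The other Jun probe set read 7.31 on AdGFP, 8.40 and 8.42 with AdmiR7a and 8.58 with AdmiR7b, a difference of 1.16 (adjusted p = 0.0222 in a limma fit of every probe set, chosen after seeing the data). Fos, its main partner, read 10.04 on AdGFP, 10.79 and 10.38 with AdmiR7a and 10.56 with AdmiR7b. It was higher on all 3 miR-7 arrays, but these spread by 0.21 (SD, n = 3) and the difference of 0.53 ± 0.18 did not pass (adjusted p = 0.106; 95% interval 0.02 to 1.04). Junb, the AP-1 subunit that often opposes Jun, read between 3.69 and 3.82 on all 6 arrays, below the filter, and was not tested.

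**Figure D1:**
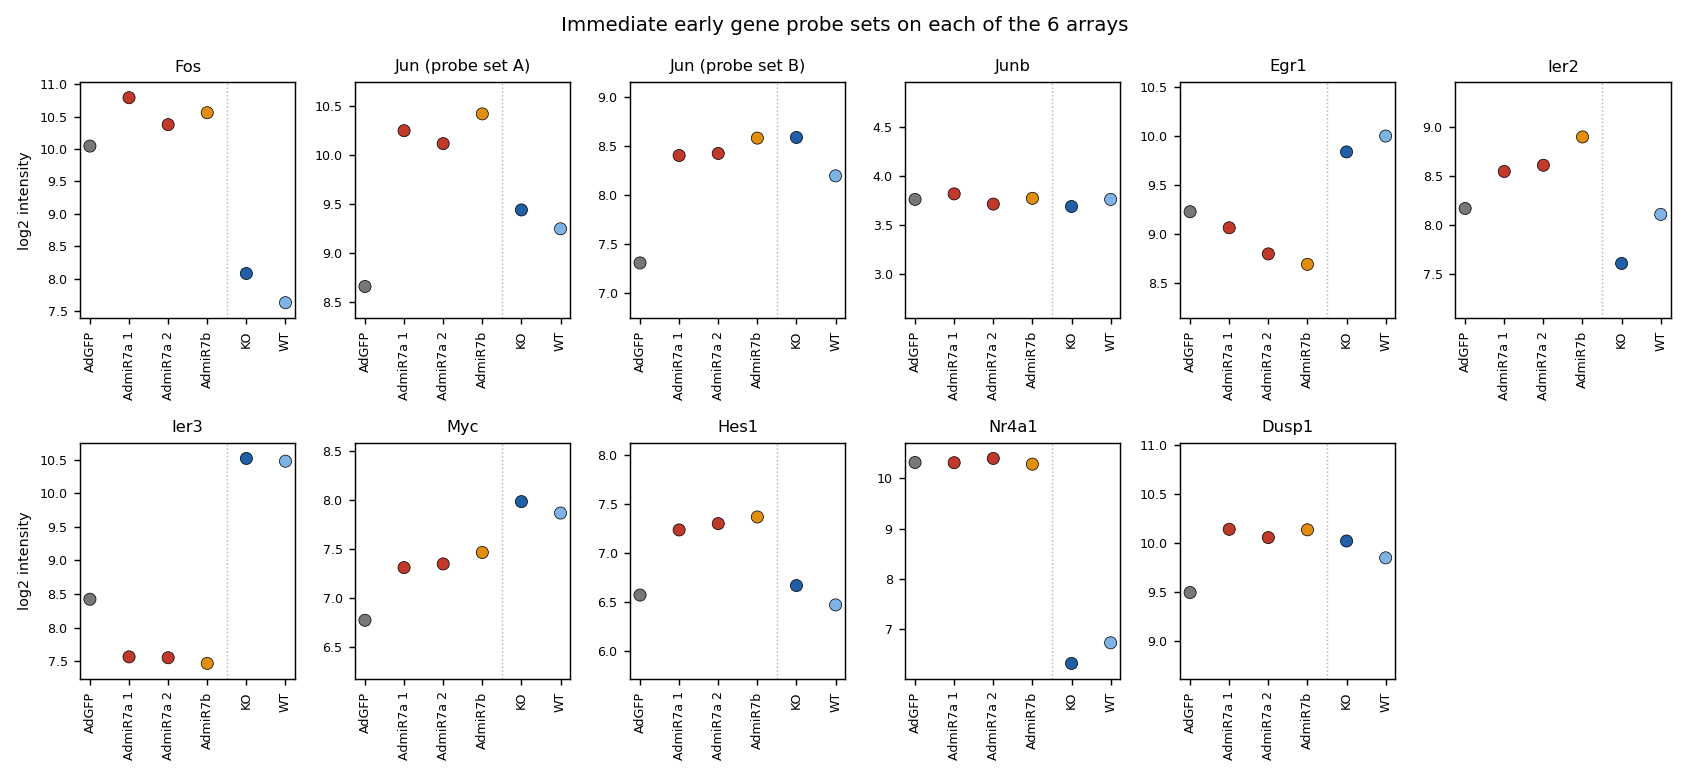
Log2 intensity of the 11 immediate early gene probe sets (1 panel each, vertical axis with its own range) on the 4 MIN6 arrays and, right of the dotted line, the 2 islet arrays; each point is 1 array. Jun probe set A is the brighter one, and both Jun probe sets are lowest on AdGFP, whereas Ier3 is higher on AdGFP (8.42) than on the 3 miR-7 arrays (7.47 to 7.56).

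Hes1, a repressor induced by Notch and by serum, read 6.57 on AdGFP, 7.23 and 7.30 with AdmiR7a and 7.37 with AdmiR7b. The miR-7 arrays stood close together (SD 0.07, n = 3), and the rise was 0.73 ± 0.09 (adjusted p = 0.0172). Myc, the growth-promoting transcription factor, read 6.78 on AdGFP, 7.31 and 7.35 with AdmiR7a and 7.47 with AdmiR7b. It rose by 0.60 ± 0.09 (adjusted p = 0.0247). Dusp1, the nuclear phosphatase of p38, JNK and ERK, read 9.50 on AdGFP, 10.14 and 10.06 with AdmiR7a and 10.14 with AdmiR7b. It rose by 0.61 ± 0.08 (adjusted p = 0.0182), 1.53-fold, again with no overlap between the groups.

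Ier3, which is induced by growth factors and NF-kappaB and binds ERK, was the only one of the 9 tested members that fell. It read 8.42 on AdGFP, 7.56 and 7.55 with AdmiR7a and 7.47 with AdmiR7b. It fell by 0.89 ± 0.08 (adjusted p = 0.0132), 1.86-fold lower than with AdGFP. Ier2, a nuclear regulator with little known of its targets, read 8.17 on AdGFP, 8.55 and 8.61 with AdmiR7a and 8.90 with AdmiR7b. The difference of 0.52 ± 0.17 did not pass (adjusted p = 0.0937). Egr1, a zinc finger factor that ERK induces through serum response factor, read 9.23 on AdGFP, 9.07 and 8.80 with AdmiR7a and 8.69 with AdmiR7b. All 3 were lower, by -0.38 ± 0.17 on average (adjusted p = 0.177; 95% interval -0.85 to 0.10).

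Nr4a1, an orphan nuclear receptor that cyclic AMP and calcium induce, was nearly level at a high signal. It read 10.32 on AdGFP, 10.31 and 10.40 with AdmiR7a and 10.28 with AdmiR7b, so AdGFP lay within the miR-7 arrays. The difference was 0.01 ± 0.08 (adjusted p = 0.916), with a 95% interval from -0.22 to 0.25 that leaves out the sizes seen for Jun, Hes1, Dusp1, Myc and Ier3. Its sign turned with the arrays centred on their medians (-0.018) and without AdmiR7a replicate 2 (-0.019). AdGFP lay below all 3 miR-7 arrays for 6 of the 9 members and above all 3 for 2, where 46.5% and 32.9% of all genes did so.

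**Figure D2:**
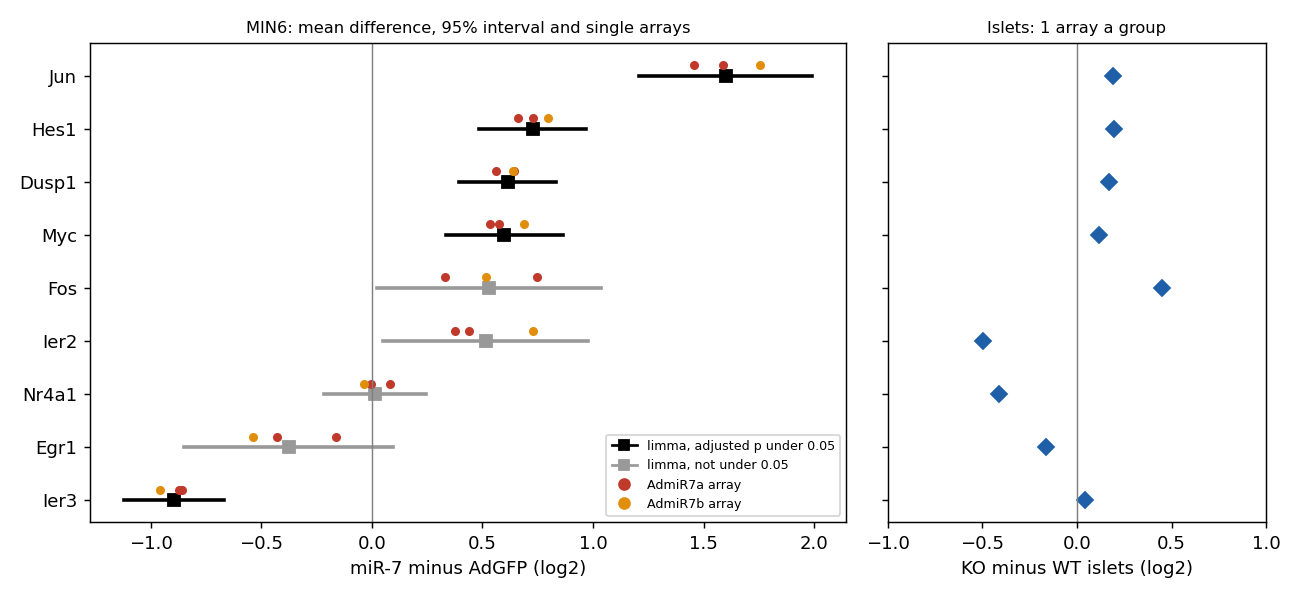
Left, the difference of miR-7 minus AdGFP in MIN6 (log2) for the 9 tested genes: squares are the mean over 3 miR-7 arrays, bars the 95% interval of the limma fit, small points the single arrays. Right, KO minus WT islets (log2) with 1 array a group, hence no error; Jun lies at 1.60 on the left and 0.19 on the right, and Ier3 at -0.89 and 0.04.

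The calls rest on few arrays. With any 1 miR-7 array left out, limma called 0 members and 0 genes of any list below, and the lowest adjusted p was 0.0656 without AdmiR7a replicate 1, 0.0773 without replicate 2 and 0.0664 without AdmiR7b; each member called above kept its direction. Without the filter on low values 1 member was called, Ier3 (adjusted p = 0.0411), and Dusp1 (0.0551), Hes1 (0.0661), Jun (0.0695) and Myc (0.101) were not. Every difference also uses the same single AdGFP array, whose hybridisation controls were 0.17 lower than the mean of the miR-7 arrays.

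**Figure D3:**
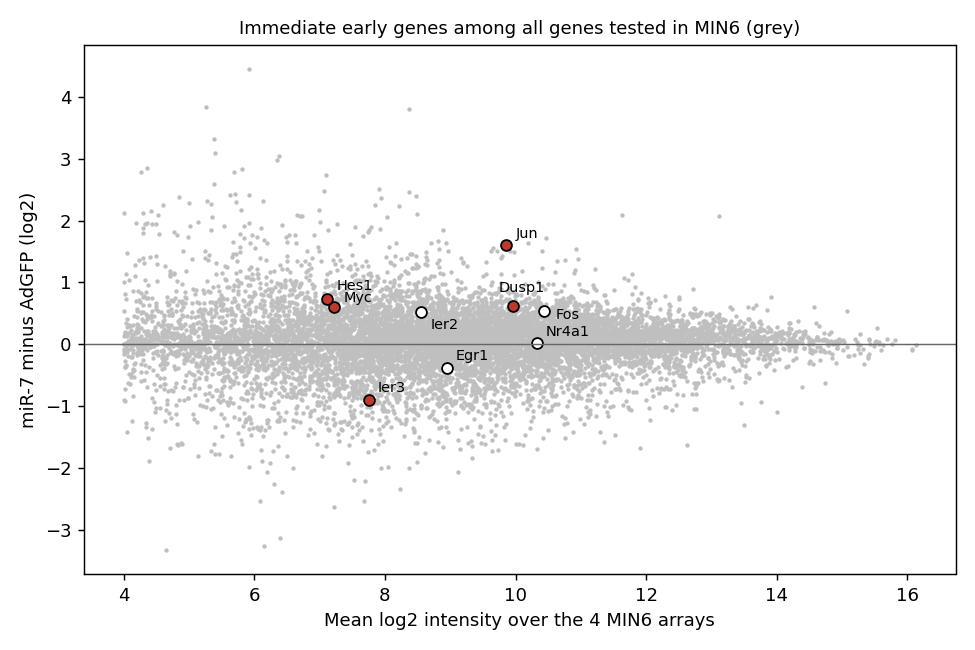
Difference of miR-7 minus AdGFP (log2) against the mean log2 intensity over the 4 MIN6 arrays for the 10369 genes tested (grey) and the 9 immediate early genes tested; red points passed the limma test, white points did not. Jun lies highest of the members at 1.60 and Ier3 lowest at -0.89.

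Fitted on their own, with 1 residual degree of freedom, the AdmiR7a arrays gave 0 members and 0 genes at an adjusted p under 0.05 in limma; at an unadjusted p under 0.05 there were 6 members and 3811 genes (36.8%). This 0 did not hold under other settings of the same fit: Jun, Hes1, Dusp1, Myc and Ier3, 5 members, passed with a filter at 6, averaged probe sets, quantile normalization or centring, with 1737, 967, 2362 and 2325 genes. With no filter 0 members and 350 genes passed, and with an intensity trend 0 members and 0 genes. Over these settings the adjusted p of Jun ran from 0.00945 to 0.164 and that of Ier3 from 0.0135 to 0.0668. Jun stood at 1.52 ± 0.10 (adjusted p = 0.0667) and Ier3 at -0.86 ± 0.07 (adjusted p = 0.0667) with AdmiR7a. By size, 1 member, Jun, was at least 1 (log2) higher on both AdmiR7a arrays, where 2.21% of genes were, and none was that much lower (2.15% of genes). With AdmiR7b, Jun was also the only member past that size, 1.76 above AdGFP, where 3.86% of genes were that much higher and 4.26% lower. AdmiR7b has 1 array, so its size has no replicate check.

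Between the vectors no member passed the test: by limma AdmiR7b differed from AdmiR7a in 0 genes after adjustment, and 608 genes (5.86%) and 1 member, Ier2, had an unadjusted p under 0.05. The largest gaps were those of Ier2 (0.32 ± 0.07), Egr1 (-0.24 ± 0.16) and Jun (0.24 ± 0.10), all with adjusted p of 0.737 or above. The 5 called members were each further from AdGFP with AdmiR7b than on the AdmiR7a mean, by 0.04 for Dusp1, 0.09 for Ier3 (-0.09), 0.10 for Hes1, 0.14 for Myc and 0.24 for Jun. These gaps all use the single AdmiR7b array and did not pass. The share of all genes that lay further from AdGFP with AdmiR7b was not counted.

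In islets with miR-7a2 deleted in beta cells, none of the 9 members compared with wild type was past a log2 size of 1, where 2.65% of genes were, and none past 0.58, where 8.83% were. Fos read 8.08 in KO and 7.63 in WT, 0.45 higher and the largest positive difference of the 9. Ier2 read 7.61 in KO and 8.11 in WT (-0.50), and Nr4a1 read 6.31 in KO and 6.72 in WT (-0.41). Each group has 1 array, so no test was possible and no p-value is given.

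The members called in MIN6 differed by 0.20 or less between the islet arrays on the same probe sets. Jun read 9.44 in KO and 9.25 in WT (0.19) on the brighter probe set and 8.58 and 8.19 (0.39) on the other. Hes1 read 6.67 and 6.47 (0.20), Dusp1 10.02 and 9.85 (0.17), Myc 7.98 and 7.87 (0.12), and Ier3 10.52 and 10.48 (0.04). Egr1 stood at -0.16. In KO 6 of the 9 stood higher and 3 lower. Their median was 0.12 against -0.03 over all 10568 genes compared, of which 44.7% were higher in KO. All 4 genes that rose with miR-7 were on the higher side in KO too, by at most 0.20 on these probe sets. Levels of the mature microRNA were not analysed here.

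Levels were set side by side between the systems without a test. Shares over all genes here cover 11155 genes with a mean of at least 4 (log2) in MIN6 or in islets. Each was read on its brightest probe set over all 6 arrays. A gene could thus be dim in 1 system, whereas the 9 members passed the filter in both. Nr4a1 lay between 10.28 and 10.40 on the MIN6 arrays and at 6.31 and 6.72 in islets, 3.81 apart in the means; 11.2% of genes were at least 3 apart. Fos was 2.59 higher in MIN6 and Ier2 0.70 higher, while Ier3 stood at -2.74, Egr1 at -0.97 and Myc at -0.70, all with every MIN6 array on 1 side of both islet arrays. Thus 3 of the 9, Nr4a1, Fos and Ier3, were at least 1 apart in the means, as were 41.7% of genes. Jun, Hes1, Dusp1 and Junb overlapped. Over all genes compared here, 38.4% were higher on every MIN6 array and 38.8% on both islet arrays.

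Islets hold other cells than MIN6, and in whole tissue fewer cells of a type and less RNA per cell cannot be told apart. Of 7 measured beta-cell markers all 7 were above 4 (log2) in islets and 6 in MIN6; Slc2a2, the glucose transporter, was not above 4 in MIN6. All 5 endothelial and all 6 immune markers were above 4 in both islet arrays, 1 of 4 acinar and 2 of 5 stellate ones were, and of 3 ductal markers 1 in KO and 0 in WT. In MIN6 at most 1 endothelial and 1 immune marker was above 4, and no acinar, ductal or stellate one. Markers of the other hormone cells of islets were also lower in MIN6. The alpha-cell marker Gcg read 12.71 to 13.35 in MIN6, against 16.28 in KO and 16.38 in WT. The delta-cell marker Sst read 9.28 to 9.64, against 14.71 and 14.74, and the PP-cell marker Ppy 5.59 to 6.75, against 15.71 and 15.60. The summed log2 levels were 39.6 in KO and 40.9 in WT for endothelial, 51.3 and 50.9 for immune, 24.5 and 25.9 for stellate, 15.3 and 16.2 for acinar, 8.85 and 7.08 for ductal and 97.2 and 96.2 for beta-cell markers. Spiked poly-A controls differed by -1.26 (log2) as KO minus WT. They averaged 9.15 in KO and 10.41 in WT, against 7.24 to 7.45 on the MIN6 arrays. Hybridisation controls averaged 10.02 in KO and 10.04 in WT, against 11.62 to 11.85 in MIN6. Actin probes at the 3′ end exceeded those at the 5′ end by 2.65 in KO and 2.77 in WT, and by 1.43 to 1.48 in MIN6. The part of these in the islet differences and in the gap between systems was not tested.

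Other immediate early transcription factors moved in both directions with miR-7. Of 22 listed, 16 were tested; 5 rose, 3 fell and 8 did not pass, 50% called against 26.2% of all genes (14.3% rose and 11.9% fell), with a median of -0.06 against 0.06. Atf3, a stress-induced partner of Jun, rose by 2.11 ± 0.07 (adjusted p = 0.0100), from 6.91 on AdGFP to 9.01, 8.99 and 9.06. Jund, the third Jun protein, rose by 0.78 ± 0.07 from 11.71 on AdGFP. The Krüppel-like factor genes Klf6 and Klf10 rose by 1.17 ± 0.13 and 0.79 ± 0.17, and the clock gene Per1 by 0.58. In contrast to Nr4a1, both of its relatives fell: Nr4a3 fell by 1.04 ± 0.09 (adjusted p = 0.0127) and Nr4a2 fell by 0.39 ± 0.07 (adjusted p = 0.0335), where other Nr4a2 probe sets lay between -0.36 and 0.10. Npas4, which neuronal activity and beta-cell depolarisation induce, fell by 0.63 ± 0.08. Fosb, Fosl1, Egr2, Egr3, Egr4 and Klf2 did not reach the filter in MIN6. Per1 and Nr4a2 were named after their values were seen.

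Among 25 listed immediate early effector genes, 21 were tested, of which 6 rose, 2 fell and 13 did not pass, 38.1% called against 26.2% of all genes (median 0.10). Gadd45b and Gadd45g, stress sensors that act on the JNK and p38 kinases, rose by 1.30 ± 0.08 and 1.16 ± 0.20. The polo-like kinase gene Plk2 rose by 2.97 ± 0.41, from 4.11 on AdGFP, which is near the filter. The inhibitors of basic helix-loop-helix factors Id1 and Id3 rose by 0.84 and 0.96, and Nfkbia, the NF-kappaB inhibitor, by 0.58. Rgs2, which shortens G protein signals, fell by 0.71 ± 0.11, and Plk3 fell by 0.67 ± 0.07. Nfkbia and Plk3 were named after their values were seen.

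Feedback inhibitors of MAP kinase signalling, many of which ERK activity itself induces, held genes that fell and genes that rose. Of 16 listed, 13 were tested; 5 fell, 3 rose and 5 did not pass, 61.5% called against 26.2% of all genes, with a median of -0.55. Dusp6, the cytoplasmic ERK phosphatase, read 10.79 on AdGFP and 9.26, 9.36 and 9.36 with miR-7, and fell by 1.47 ± 0.08 (adjusted p = 0.0100). Dusp4, a nuclear phosphatase, fell by 1.16 ± 0.08, and Dusp5, specific for nuclear ERK, fell by 0.71 ± 0.10. The Sprouty genes Spry4 and Spry2, which block receptor signals to Ras, fell by 1.06 ± 0.21 and fell by 0.79 ± 0.11. Of the 3 that rose, Dusp16, a phosphatase of JNK and p38, rose by 2.26 ± 0.17 (adjusted p = 0.0119), from 6.16 to 8.22, 8.42 and 8.60. Dusp8, which acts on the same kinases, rose by 0.72 ± 0.09, and Errfi1, an inhibitor of the EGF receptor, by 0.64 ± 0.08. Dusp5 and Errfi1 were named after their values were seen. The Dusp family thus held members on both sides: Dusp1, Dusp8 and Dusp16 rose, and Dusp4, Dusp5 and Dusp6 fell. Dusp10 at -0.64, Dusp7 at -0.14 and Dusp14 at 0.03 did not pass, and were named after their values were seen. Among islet arrays, 11 of 14 genes of this list stood higher in KO than in WT and 3 lower (median 0.29), with no test; Dusp4 was 0.78 higher and Dusp6 stood at -0.11.

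**Figure D4:**
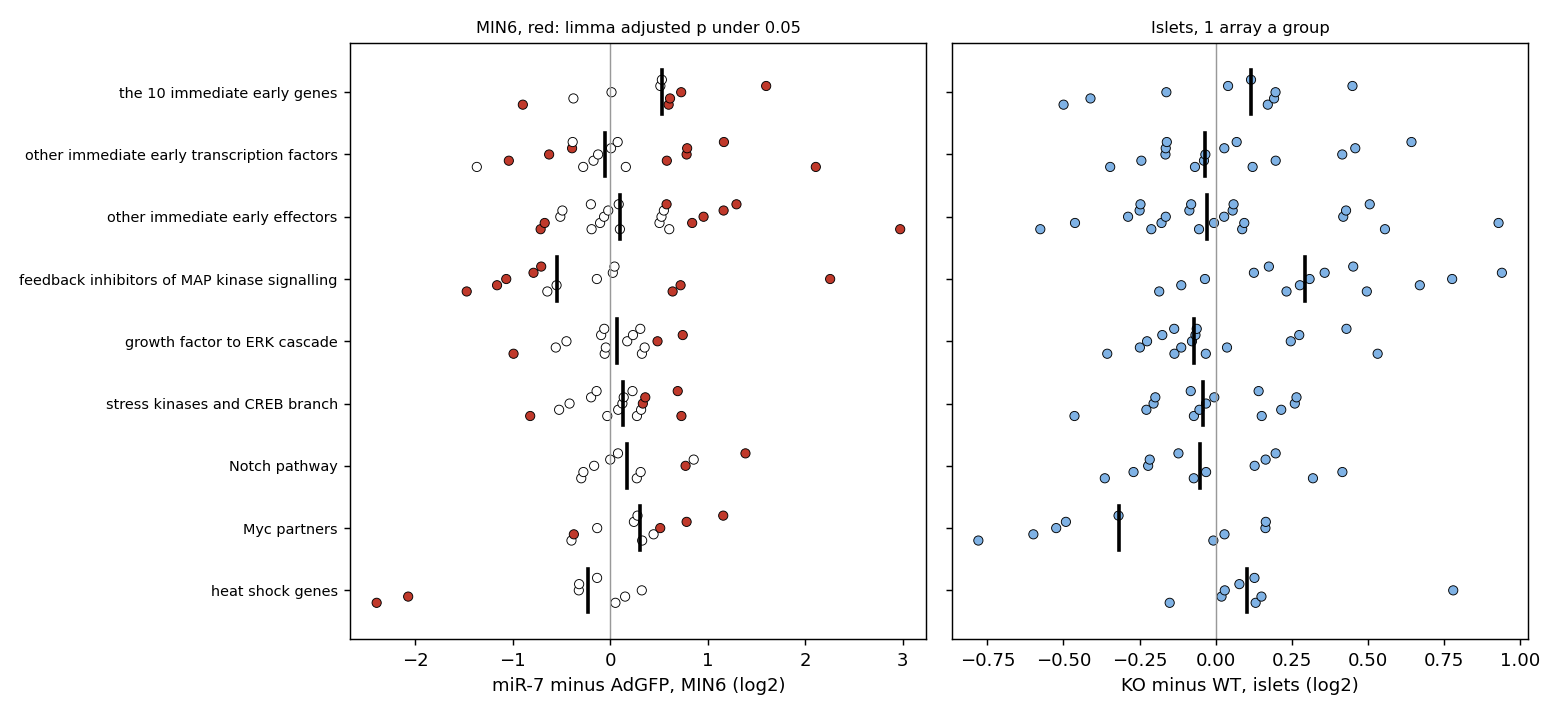
Each point is 1 gene of the 9 immediate early genes past the filter and of the 8 related lists: left, miR-7 minus AdGFP in MIN6 (log2), red where limma gave an adjusted p under 0.05; right, KO minus WT islets (log2), 1 array a group. Black bars are list medians. That of the feedback inhibitors is -0.55 on the left and 0.29 on the right. Those of the 9 immediate early genes are 0.53 and 0.12, and those over all genes, not drawn, are 0.06 and -0.03.

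Kinases and adaptors upstream of these genes were listed too. Of 24 listed genes of the growth factor to ERK cascade, 14 were tested, of which 2 rose and 1 fell. This was 21.4% called against 26.2% of all genes, with a median of 0.07 against 0.06. Map2k1, which activates ERK, rose by 0.74 ± 0.09, the adaptor gene Grb2 rose by 0.49 ± 0.10, and Rps6ka3, an ERK-activated kinase, fell by 0.99 ± 0.09 on its brightest probe set while another stood at 0.21. On their brightest probe sets Egfr was at -0.45 (adjusted p = 0.219) and Braf at -0.56 (adjusted p = 0.123), both named after their values were seen. Their other probe sets, some of them dim, ran from -0.95 to 0.08 for Egfr and from -1.20 to -0.02 for Braf. Of 16 tested genes of the stress kinase and CREB branch 4 rose and 1 fell, 31.2% called against 26.2% of all genes (median 0.13). Map2k6, an activator of p38, rose by 0.73, Camk2b by 0.69, Prkacb by 0.36 and Mapk14, p38 itself, by 0.34. The CREB coactivator gene Crtc3 fell by 0.82 ± 0.19.

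Partners of Hes1 and of Myc were listed as well. Of 10 tested Notch pathway genes 2 rose and 0 fell, 20% called against 26.2% of all genes (median 0.18). Hey1, a repressor related to Hes1, rose by 0.77 ± 0.10. Dtx1, named after its values were seen, rose by 1.39 ± 0.13 from 4.01, at the filter. Notch1, named likewise, was at 0.86 ± 0.27 (adjusted p = 0.0900). Of 10 tested Myc relatives and partners 3 rose and 1 fell, 40% called against 26.2% of all genes (median 0.30). Mycn rose by 1.16 ± 0.22, and the Myc antagonists Mxd4 and Mxi1 rose by 0.78 and 0.51. Mlx, which pairs with glucose-sensing factors, fell by 0.37. In KO islets 3 of 9 of these Myc partners were higher and 6 lower (median -0.32), and none was past 1. Over all genes compared in islets 44.7% were higher in KO (median -0.03) and 2.65% were past 1 in either direction.

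Heat shock genes, which cell stress induces like many immediate early genes, were also set beside the members. Of 8 tested, 2 fell and 6 did not pass, 25% called against 26.2% of all genes (median -0.23). Hspa1a read 8.22 on AdGFP and 5.51, 5.99 and 5.99 with miR-7, and Hspa1b read 10.67 on AdGFP and 8.46, 8.81 and 8.52, so both were high on the control array and fell by 2.39 ± 0.23 and fell by 2.07 ± 0.17. Jun, Hes1, Dusp1 and Myc were low on that same array. With 1 AdGFP array, a high value on the control cannot be told apart from a fall with miR-7. The part of the AdGFP array in the members' differences was not tested. In islets Hspa1b was 0.78 higher in KO and Hspa1a 0.13 higher.

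The genes most like the 3 members that differed most were sought by the mean absolute distance over 4 differences (each miR-7 array minus AdGFP, and KO minus WT) among 9781 genes measured in both systems. Nearest to Jun were Gprc5c (0.10), the integrin gene Itga6 (0.11) and Ptprr, a receptor-type phosphatase of MAP kinases (0.14). Nearest to Ier3 were Uhrf1, a reader of DNA methylation (0.03), the plectin gene Plec (0.04) and Plpp5 (0.04). Nearest to Hes1 were Dusp8 (0.03), Rnf32 (0.03) and Lyrm1 (0.04). The 3 MIN6 differences behind each distance share the AdGFP array.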

How the data were processed

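RNA of 6 mouse samples was measured on Affymetrix arrays. The file holds log2 intensities deposited per probe set; GCRMA and affy are named, without versions, per the submitters' processing notes; which arrays were normalized together is not given in the sources used here. GCRMA shrinks dim probe sets toward a shared lowest value, 2.17 here, at which 28.2% to 29.7% of probe sets stood on each array, so differences of dim genes are understated. Upper quartiles lay between 7.95 and 8.01. Precision is limited by the number of arrays.

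Of 45101 probe sets, 34958 carried 1 gene symbol in the platform annotation. Each gene took its probe set with the highest mean in MIN6 or in islets, and genes with a mean under 4 (log2) in that system were left out. For levels between the systems, the probe set was the brightest over all 6 arrays. A mean of at least 4 in either system was then enough. Groups came from the sample labels. Tests used limma 3.58.1 in R 4.3.3 (lmFit, eBayes, two-sided), adjusted by Benjamini-Hochberg over all genes tested. The pooled fit assumes that AdGFP varies like the miR-7 arrays. Only this fit was tested on simulated data, which were drawn with that same assumption and so cannot check it. The fits per vector were not simulated. Groups of 1 array were compared by size only. Members, lists and motifs were chosen with earlier results of these data known. From each list, up to 6 called genes with the largest differences and a level of at least 6 were named, and genes named otherwise are marked. Promoter and microRNA sequences are from RefSeq. Alternatives were a filter at 6 or none, averaged probe sets, quantile normalization again, centring, an intensity trend and arrays left out; every probe set as a feature was added after seeing the data.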

Additional observations from a re-analysis of the deposited data

How the results depend on the processing

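The 5 calls among the members held with a filter at 6, averaged probe sets, quantile normalization again, centring, an intensity trend and every probe set as a feature (the last chosen after seeing the data). Without the filter, the pooled fit called 981 genes and 1 member. When 1 of the 3 miR-7 arrays was left out, 0 to 0 genes and 0 to 0 members were called; such a fit has 1 residual degree of freedom. The 0 genes of AdmiR7a against AdGFP became 1737 with a filter at 6, 350 with none, 967 with averaged probe sets, 2362 after quantile normalization and 2325 after centring, and its 0 members became 5 in each of these but the fit with no filter (0); the cause was not tested. Nr4a1, which did not pass, turned to -0.0179 with centring, and with 1 array left out it ranged from -0.0188 (without AdmiR7a replicate 2) to 0.0382 (without AdmiR7b). No paired analysis was possible because replicate numbers are given for AdmiR7a alone. The single AdGFP, KO and WT arrays limit all differences, and Junb, under the filter, stood at 0.01 in the fit with no filter.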
